A study of Rattus norvegicus with 8 samples.

Results

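The 35 genes described here encode the proteins by which fat cells take up, make, coat and release triglyceride, together with the hormones that fat cells secrete. They were chosen by name, with earlier results of these libraries known, and a gene was kept where any normalized read count was above 0. Of the 35, 33 had a count, out of 22798 genes with a read in all. Of these 33, 32 passed a filter of 10 or more normalized counts in 2 or more libraries and were tested. Ucp1 did not pass, and Cd36 and Mlxipl were not analysed here. Because the genes were picked with their behaviour in view, the counts of members called below describe these genes and are no independent evidence about fat cells in the grafts.

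RNA was sequenced from 8 samples of sciatic nerve tissue of female Sprague Dawley rats aged 3 to 6 months. A peripheral nerve allograft (PNA) is a nerve segment from another, non-matched outbred rat, here sutured into a gap cut in the sciatic nerve of a host given no immune suppression. The 3 PEG-fused PNAs (PEG) were treated with a sequence of solutions that includes polyethylene glycol, which joins cut axon ends, and the 3 negative control PNAs (NC) had the same surgery without PEG. Both kinds of graft were taken at 14 days post-operatively, and the 2 unoperated nerves (Unop) were control segments of uncut sciatic nerve. The libraries of each group came from separate animals. The cells of a graft are a mixture of donor and host, which RNA of whole tissue cannot separate.

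A fat cell stores triglyceride in a single large droplet. Fatty acids are freed from blood lipoproteins by lipoprotein lipase, activated to acyl-CoA and joined to glycerol 3-phosphate by a chain of acyltransferases that ends with the DGAT enzymes. Perilipins and CIDE proteins coat and enlarge the droplet, and the lipases ATGL and HSL break it down on adrenergic signals. PPAR gamma and C/EBP alpha switch this program on. In the sciatic nerve, fat cells lie in the outer connective tissue sheath, the epineurium, around the bundles of axons, and several of the members are also used by macrophages, endothelium or muscle fibres.

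Each library held from 32472925 to 39959620 reads on genes. The Unop nerves were rich in transcripts of myelinating Schwann cells, with a summed count of 2835912 to 3408782 over 10 markers, against 48288 to 57868 in PEG-fused and 18463 to 77685 in NC PNAs. Macrophage markers, 10 of 10 detected, summed to 97313 to 113526 in PEG-fused PNAs, 140833 to 166584 in NC PNAs and 18078 to 28944 in Unop nerves. Of the NC PNAs, NC 1 and NC 3 held many transcripts of skeletal muscle fibres: 7 muscle genes summed to 776057 in NC 1 and 280496 in NC 3 but 12963 in NC 2, and to 3059.8 to 18199 in PEG-fused PNAs and 7095 to 42262 in Unop nerves. For the members whose value or call moved most without NC 1 and NC 3, the fit without these libraries is given as well.

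Promoter sequences are shown for 4 members that had opposite patterns between the grafts. Pck1, Lep and Thrsp fell furthest in PEG-fused PNAs relative to Unop nerves among members with a single RefSeq promoter window, and Agpat2 is the one member with such a window that was higher in PEG-fused than in NC PNAs. Each run is the 250 bases before the start site, 5′ to 3′ on the strand of the gene, from RefSeq on build GRCr8, which is not the build of the read counts. Capitals mark 5 short motifs on either strand, which may overlap each other: the TATA box (letters TATAAA), the CCAAT box (letters CCAAT), the GC box (letters GGGCGG), the C/EBP core (letters TTGCNNAA) and the nuclear receptor half-site (letters AGGTCA).
Pck1 (chr3:182348322-182348571, plus strand): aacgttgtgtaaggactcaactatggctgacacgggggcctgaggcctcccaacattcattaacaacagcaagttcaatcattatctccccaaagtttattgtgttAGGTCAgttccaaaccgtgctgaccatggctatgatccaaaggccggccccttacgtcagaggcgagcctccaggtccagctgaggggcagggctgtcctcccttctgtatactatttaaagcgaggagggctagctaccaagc
Lep (chr4:58626288-58626537, plus strand): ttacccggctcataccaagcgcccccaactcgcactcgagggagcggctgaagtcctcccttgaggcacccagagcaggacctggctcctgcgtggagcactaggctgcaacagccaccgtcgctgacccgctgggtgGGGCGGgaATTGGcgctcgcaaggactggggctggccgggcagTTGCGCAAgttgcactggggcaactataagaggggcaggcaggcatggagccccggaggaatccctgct
Thrsp (chr1:161138965-161139214, minus strand): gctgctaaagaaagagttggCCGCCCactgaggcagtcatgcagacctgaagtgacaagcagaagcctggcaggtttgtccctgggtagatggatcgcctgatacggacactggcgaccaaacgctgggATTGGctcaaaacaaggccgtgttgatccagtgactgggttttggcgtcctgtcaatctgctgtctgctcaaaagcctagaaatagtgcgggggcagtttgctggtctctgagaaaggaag
Agpat2 (chr3:29826158-29826407, minus strand): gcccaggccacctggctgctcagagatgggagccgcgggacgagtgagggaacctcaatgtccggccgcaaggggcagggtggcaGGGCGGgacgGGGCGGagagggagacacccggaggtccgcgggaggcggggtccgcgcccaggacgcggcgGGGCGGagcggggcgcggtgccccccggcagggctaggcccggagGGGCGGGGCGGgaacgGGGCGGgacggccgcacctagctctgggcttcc
Pck1 held 1 nuclear receptor half-site, 144 bases before its start site. Lep held a GC box, a CCAAT box and a C/EBP core, the last 69 bases before the start, and Thrsp held a CCAAT box and a GC box. Agpat2 carried the GC box 6 times and none of the other motifs. Among all 33469 windows in the table, 12.9% held the TATA box, 34.0% the CCAAT box, 30.5% the GC box, 9.22% the C/EBP core and 14.1% the half-site. Of the 23 tested members with a window, 3, 11, 15, 6 and 4 held them in the same order, counting a gene with several windows once, and none held the direct repeat of the half-site with 1 base between, which 0.0508% of all windows held. These are matches of letters only, and no binding was measured.

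Most of the members were far lower in both kinds of graft than in the unoperated nerve. The 33 members with a count together took 0.597% and 0.406% of all counts in Unop 1 and Unop 2, between 0.0718% and 0.114% in the PEG-fused PNAs, and between 0.0761% and 0.0982% in the NC PNAs. Relative to Unop nerves, 29 of 32 tested members were lower in PEG-fused PNAs at an adjusted p under 0.05 (limma), where 28.6% of all 16478 tested genes were, and 1 was higher, where 29.1% were. In NC PNAs, 27 were lower and 1 higher than in the unoperated nerves, against 32.3% and 32.2% of all tested genes. The median log2 fold change of the members was -3.43 in PEG-fused and -2.67 in NC PNAs, beside 0.013 and 0.022 for all tested genes. Both comparisons use the same 2 Unop nerves. Aqp7 and Adrb3 passed the filter only through the Unop nerves and so had to be higher there. In tissue of this kind, fewer fat cells and less RNA per fat cell cannot be told apart.

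The 2 grafts differed less from each other, in both directions. Compared with NC PNAs, 11 members were lower in PEG-fused PNAs, where 13.9% of all tested genes were, 3 were higher, where 15.0% were, and 18 were not called. The 11 were Retn, Plin5, Plin1, Thrsp, Lep, Cidec, Pck1, G0s2, Acsl1, Pnpla2 and Cfd, and the 3 were Dgat2, Agpat2 and Dgat1. The median log2 fold change of the 32 members was -0.76, against 0.0017 for all tested genes. The PEG-fused PNAs lay below all 3 NC PNAs in 12 members and above them in 4, while 16 overlapped, and among all tested genes 23.3% lay below and 25.6% above. Of the 11, 10 were also lower than Unop nerves in both grafts, so that their order was Unop, NC, PEG, and all 3 of the higher ones had the order Unop, PEG, NC.

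**Figure D1:**
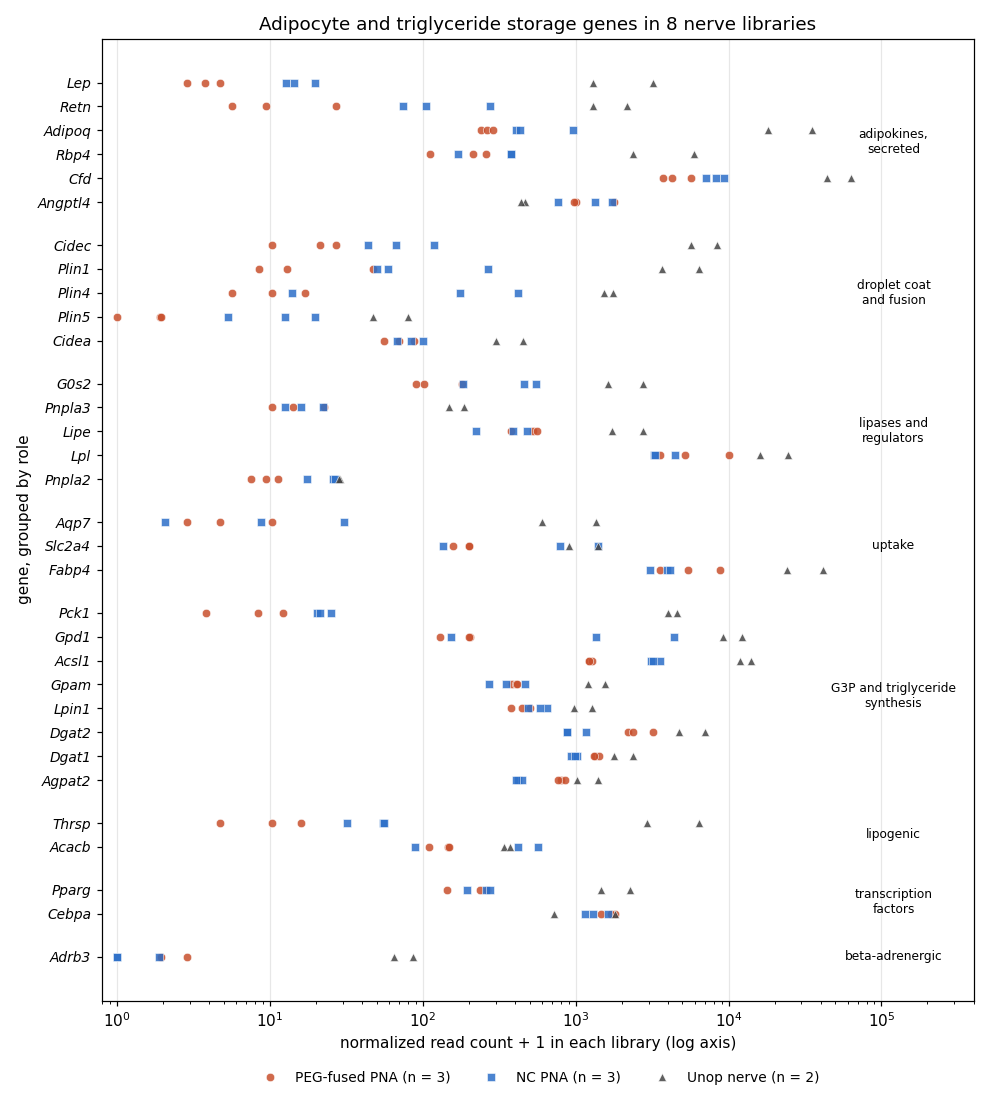
Normalized read counts plus 1 of the 32 tested members in each library, on a log axis, grouped by role and within a role by the fold change of PEG-fused PNAs relative to Unop nerves. Circles are the 3 PEG-fused PNAs, squares the 3 NC PNAs and triangles the 2 Unop nerves. For Lep the 3 groups stand apart, at up to 3.75 counts in PEG, 11.8 to 18.8 in NC and at least 1305 in Unop, while for Angptl4 all 6 grafts lie above both Unop nerves.

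In the following paragraphs the values of a gene are normalized read counts, listed by replicate number within PEG, NC and Unop. A log2 fold change is a difference of log2(normalized count + 1), with its standard error (SE) from limma, and understates the change of genes with few counts.

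Among the hormones and other secreted proteins, 5 of 6 were lower in both grafts than in the unoperated nerves and 1 was higher. Lep encodes leptin, the hormone by which fat cells report their stores to the brain. Lep had 2.78, 1.87 and 3.75 counts in PEG, 18.8, 11.8 and 13.5 in NC and 3209 and 1305 in Unop. No group overlapped another. Relative to Unop nerves, its log2 fold change was -9.10 ± 0.44 in PEG-fused and -7.05 ± 0.44 in NC PNAs. From the 9 reads of the PEG-fused PNAs against 4033 in the Unop nerves, the ratio was 832, with an exact 95% interval of 438 to 1821 for counting error only. Between the grafts, Lep was lower in PEG-fused PNAs, at a log2 fold change of -2.05 ± 0.39 (limma adjusted p = 0.00672).

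Adipoq encodes adiponectin, the most abundant hormone of fat cells. For Adipoq, the counts were 238, 264 and 288 in PEG, 967, 408 and 434 in NC and 35084 and 18102 in Unop. The grafts lay far below both Unop nerves, and PEG-fused PNAs lay below NC PNAs without overlap, with NC 1 the highest graft. Relative to Unop nerves, the log2 fold change was -6.58 ± 0.39 in PEG-fused and -5.50 ± 0.39 in NC PNAs. Between the grafts it was -1.08 ± 0.35, just outside the threshold (limma adjusted p = 0.05005), and without NC 1 and NC 3 it was -0.63. Of 18 alternative fits, 8 called Adipoq lower in PEG-fused than in NC PNAs, edgeR and DESeq2 among them.

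Retn encodes resistin, a fat cell hormone in rodents. The counts of Retn were 4.63, 8.41 and 26.3 in PEG, 273, 104 and 73.3 in NC and 2161 and 1303 in Unop. The 3 groups did not overlap, and PEG 3 stood highest among the PEG-fused PNAs. Its log2 fold change of -3.51 ± 0.64 was the largest fall among the members in PEG-fused relative to NC PNAs (limma adjusted p = 0.0057), and it was -3.70 ± 0.72 in NC PNAs relative to Unop nerves. Cfd encodes complement factor D (adipsin), a protease of the alternative complement pathway that fat cells secrete and that macrophages can also make. Counts for Cfd came to 5691, 3744 and 4297 in PEG, 7091, 8247 and 9328 in NC and 63144 and 43870 in Unop. Every PEG-fused PNA was below every NC PNA, and both below the Unop nerves. Cfd was lower in PEG-fused than in NC PNAs at a log2 fold change of -0.86 ± 0.19 (limma adjusted p = 0.0133), a call lost without PEG 2. Of 10 macrophage markers, 6 were called lower in PEG-fused than in NC PNAs, where 13.9% of all tested genes were, and none higher. The other 4 were not called, of which Msr1 and Cd68 had log2 fold changes above 0, of 0.61 and 0.36. The part of macrophages in the values of Cfd was not tested.

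Rbp4 encodes the carrier of retinol in blood. Rbp4 gave 259, 111 and 211 counts in PEG, 379.8, 170.0 and 379 in NC and 5951 and 2364 in Unop. Both grafts were far below the Unop nerves and overlapped each other, and their difference was not called (limma adjusted p = 0.31). Angptl4 encodes a secreted inhibitor of lipoprotein lipase. Angptl4 had 1006, 971 and 1786 counts in PEG, 769, 1727 and 1332 in NC and 464 and 438 in Unop. It was the only member above the Unop nerves in all 6 grafts, with a log2 fold change of 1.42 ± 0.36 in PEG-fused (limma adjusted p = 0.00909) and 1.42 ± 0.36 in NC PNAs (limma adjusted p = 0.0078). The grafts overlapped each other widely. Without Unop 2, the call in PEG-fused PNAs was lost.

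All 5 tested genes of droplet coat and fusion proteins were lower in both grafts than in the unoperated nerves, and 3 were lower in PEG-fused than in NC PNAs. Plin1 encodes perilipin 1, the coat protein that guards the droplet of fat cells from lipases. For Plin1, the counts were 12.0, 7.48 and 46.0 in PEG, 265, 49.5 and 57.9 in NC and 6366 and 3691 in Unop. PEG 3 and NC 1 stood above the others of their groups, and PEG 3 came close to NC 2. The log2 fold change was -8.13 ± 0.86 in PEG-fused and -5.71 ± 0.86 in NC PNAs relative to Unop nerves. Between the grafts, -2.42 ± 0.77 was called at limma adjusted p = 0.0471, and the call was lost without any one of PEG 1, PEG 2, NC 1, NC 3, Unop 1 or Unop 2.

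Cidec encodes the fusion protein that enlarges the single droplet of white fat cells. The counts of Cidec were 20.4, 9.35 and 26.3 in PEG, 117, 43.0 and 65.6 in NC and 8406 and 5671 in Unop. The groups did not overlap. Cidec fell in both grafts, with a log2 fold change of -8.57 ± 0.50 in PEG-fused and -6.62 ± 0.50 in NC PNAs relative to Unop nerves, and was lower in PEG-fused than in NC PNAs at a log2 fold change of -1.95 ± 0.45 (limma adjusted p = 0.0141). Plin5 encodes a coat protein of tissues that burn fat, muscle among them. Counts for Plin5 came to 0.927, 0.935 and 0 in PEG, 18.8, 4.30 and 11.6 in NC and 79.4 and 46.3 in Unop. The PEG-fused PNAs held 2 reads in all, below every NC PNA, and NC 2 was the lowest NC PNA. The ratio of Unop to PEG was 103, with an exact 95% counting interval of 27.9 to 861, and that of NC to PEG was 19.3 (4.97 to 165). The fitted log2 fold change between the grafts was -2.82 ± 0.57 (limma adjusted p = 0.00813).

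Plin4 encodes a perilipin of new droplets in fat cells and muscle. Plin4 gave 9.27, 4.67 and 15.9 counts in PEG, 419, 12.9 and 176 in NC and 1758 and 1523 in Unop. NC 1 and NC 3 were high and NC 2 fell among the PEG-fused PNAs. Between the grafts, the log2 fold change of -3.34 ± 1.09 just missed the threshold (limma adjusted p = 0.05034). Cidea encodes a droplet protein known from brown fat. Cidea had 54.7, 69.2 and 87.2 counts in PEG, 100.1, 66.7 and 83.0 in NC and 452 and 299 in Unop. The grafts overlapped, and both were below the Unop nerves, with a log2 fold change of -2.39 ± 0.29 in PEG-fused and -2.15 ± 0.29 in NC PNAs.

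The 5 genes of lipases and their regulators were all lower in PEG-fused PNAs than in the unoperated nerves, and 4 in NC PNAs. Lpl encodes lipoprotein lipase, which frees fatty acids from blood lipoproteins and is also made by macrophages. For Lpl, the counts were 3550, 5229.7 and 10134 in PEG, 4479, 3254 and 3324 in NC and 24353 and 16132 in Unop. PEG 3 stood highest of the grafts, and the groups of grafts overlapped. The log2 fold change relative to Unop nerves was -1.79 ± 0.39 in PEG-fused and -2.44 ± 0.39 in NC PNAs, and between the grafts it was not called (limma adjusted p = 0.2). Lipe encodes hormone-sensitive lipase (HSL). The counts of Lipe were 526, 378 and 554 in PEG, 391, 224 and 478 in NC and 2749.6 and 1721 in Unop. The grafts overlapped (limma adjusted p = 0.28) and stood below both Unop nerves.

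Pnpla2 encodes ATGL, the lipase that removes the first fatty acid of triglyceride. Counts for Pnpla2 came to 6.49, 10.3 and 8.44 in PEG, 25.0, 25.8 and 16.4 in NC and 27.9 and 27.5 in Unop. It had between 7 and 28 reads per library, and the NC PNAs stood above the PEG-fused PNAs and close to the Unop nerves. It was lower in PEG-fused than in NC PNAs at a log2 fold change of -1.31 ± 0.32 (limma adjusted p = 0.0171), a call lost without PEG 1 or without NC 2, and in NC PNAs it was not called relative to Unop nerves (limma adjusted p = 0.45). G0s2 encodes the inhibitor of ATGL, and is known from myeloid cells as well. G0s2 gave 89.9, 180.4 and 101 counts in PEG, 549, 462 and 182 in NC and 2746 and 1627 in Unop. NC 3 and PEG 2 were nearly equal, so that the 2 kinds of graft barely separated. Between the grafts, its log2 fold change was -1.60 ± 0.44 (limma adjusted p = 0.029), and the call was lost without PEG 1, PEG 3, NC 1 or NC 2. The part of macrophages, with 6 of 10 markers lower in this comparison, was not tested for G0s2 either. Pnpla3, a relative of ATGL that is induced by feeding, had the following values. Pnpla3 had 9.27, 13.1 and 21.6 counts in PEG, 21.4, 15.1 and 11.6 in NC and 185 and 148 in Unop. The grafts overlapped, and both were lower than the Unop nerves, with a log2 fold change of -3.48 ± 0.41 in PEG-fused and -3.33 ± 0.41 in NC PNAs.

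None of the 3 tested uptake genes was called between the grafts, and all were lower in PEG-fused PNAs than in the unoperated nerves. Fabp4 encodes the fatty acid binding protein of fat cells, which capillary endothelium and macrophages also express. For Fabp4, the counts were 5407, 3548 and 8780.4 in PEG, 3942, 3075 and 4127 in NC and 41410 and 23953 in Unop. PEG 3 was the highest graft, and the grafts overlapped (limma adjusted p = 0.21). Its log2 fold change relative to Unop nerves was -2.51 ± 0.37 in PEG-fused and -3.10 ± 0.37 in NC PNAs. The endothelial markers, 8 detected of 10, summed to 15487 to 19895 in PEG-fused PNAs, 14106 to 18072 in NC PNAs and 24605 to 26538 in Unop nerves, with their part in Fabp4 not tested.

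Aqp7 encodes the channel through which glycerol leaves fat cells. The counts of Aqp7 were 1.85, 3.74 and 9.38 in PEG, 29.5, 1.08 and 7.72 in NC and 1356 and 602 in Unop. It was almost silent in the grafts, and NC 1 stood highest among them. The reads gave a ratio of Unop to PEG of 202, with an exact 95% counting interval of 124 to 355. Slc2a4 encodes GLUT4, the insulin-responsive glucose transporter of fat and muscle. Counts for Slc2a4 came to 199, 157 and 199 in PEG, 1396, 136 and 787 in NC and 1389.8 and 911 in Unop. NC 1 and NC 3 reached the level of the Unop nerves, and NC 2 lay below every PEG-fused PNA. Slc2a4 was lower in PEG-fused PNAs than in the unoperated nerves, with a log2 fold change of -2.61 ± 0.81 (limma adjusted p = 0.0229). This call was lost in a robust fit and without PEG 2, Unop 1 or Unop 2. In NC PNAs Slc2a4 was not called, at -1.08 ± 0.81 (limma adjusted p = 0.27). Without NC 1 and NC 3, it was called lower in NC PNAs too, with a log2 fold change of -3.04 (limma adjusted p = 2.00e-04). Whether the 2 differ is the comparison of the grafts themselves, which was not called (limma adjusted p = 0.15).

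All 8 genes of glycerol 3-phosphate and triglyceride synthesis were lower in both grafts than in the unoperated nerves, but between the grafts they split, with 3 higher and 2 lower in PEG-fused PNAs. Pck1 encodes the enzyme by which fat cells make glycerol 3-phosphate without glucose. Pck1 gave 7.42, 2.80 and 11.3 counts in PEG, 24.1, 19.4 and 20.3 in NC and 4569.7 and 4027 in Unop. The 3 groups did not overlap, and the fall in PEG-fused PNAs relative to Unop nerves, a log2 fold change of -9.20 ± 0.45, was the largest of any member, with -7.60 ± 0.45 in NC PNAs. Between the grafts, Pck1 was lower in PEG-fused PNAs with a log2 fold change of -1.60 ± 0.40 (limma adjusted p = 0.0196). Gpd1 encodes the enzyme that makes glycerol 3-phosphate from glycolysis. Gpd1 had 204, 128 and 199 counts in PEG, 4419, 152 and 1366 in NC and 12218 and 9262 in Unop. NC 1 and NC 3 were high, while NC 2 lay among the PEG-fused PNAs, and the difference between the grafts was not called (limma adjusted p = 0.0996). The call of Gpd1 below Unop nerves in NC PNAs was lost in edgeR and in a robust fit. It was also lost with only the 2 groups compared and without Unop 1 or Unop 2.

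Acsl1 encodes the acyl-CoA synthetase that activates fatty acids in fat cells, and inflammatory macrophages raise it as well. For Acsl1, the counts were 1215, 1278 and 1231 in PEG, 3583, 3100.4 and 3196 in NC and 14040 and 11807 in Unop. The replicates of each graft lay close together and the 3 groups stood apart. The log2 fold change was -3.37 ± 0.10 in PEG-fused and -1.97 ± 0.10 in NC PNAs relative to Unop nerves, and -1.40 ± 0.09 between the grafts (limma adjusted p = 3.38e-04), the smallest adjusted p of any member there. The macrophage markers summed to 97313 to 113526 in PEG-fused and 140833 to 166584 in NC PNAs, and their part in Acsl1 was not tested.

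The last acyltransferases of the pathway went the other way between the grafts. Dgat2 encodes a DGAT of fat cells and liver that joins the third fatty acid. The counts of Dgat2 were 2209.7, 2377 and 3217 in PEG, 882, 1176 and 871 in NC and 7008 and 4709 in Unop. PEG-fused PNAs were above all NC PNAs and below both Unop nerves. The log2 fold change was 1.41 ± 0.20 between the grafts (limma adjusted p = 0.00214), -1.16 ± 0.22 in PEG-fused PNAs and -2.57 ± 0.22 in NC PNAs relative to Unop nerves. Agpat2 encodes the acyltransferase that adds the second fatty acid, and its loss causes lipodystrophy. Counts for Agpat2 came to 802, 857 and 767 in PEG, 417, 446 and 406 in NC and 1408 and 1022 in Unop. Its values were tight within each graft, and PEG-fused PNAs lay above NC PNAs at a log2 fold change of 0.93 ± 0.13 (limma adjusted p = 0.00197). Dgat1 encodes the other, widely expressed DGAT. Dgat1 gave 1328, 1423 and 1309.6 counts in PEG, 931, 1025 and 994 in NC and 2376 and 1787 in Unop. It was higher in PEG-fused PNAs with a log2 fold change of 0.46 ± 0.11 (limma adjusted p = 0.0187), without overlap, and this call was lost without PEG 2.

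Of 10 fibroblast markers, 3 were called higher in PEG-fused than in NC PNAs, where 15.0% of all tested genes were, and none lower. These were Col1a1, Col1a2 and Pdgfra, with Col1a1 close to the threshold (limma adjusted p = 0.0499), while Fbln1 had a log2 fold change of -0.81 that was not called. The markers had a summed count of 617309 to 898301 against 352844 to 535122. Of 10 markers of myelinating Schwann cells 1 was called higher. The part of either in the values of Dgat2, Agpat2 and Dgat1 was not tested. Gpam, which encodes the first acyltransferase of the pathway at mitochondria, and Lpin1, which encodes the phosphatase before the DGAT step, were not called between the grafts (limma adjusted p = 0.49 and limma adjusted p = 0.11). Gpam had 386, 407 and 416 counts in PEG, 463, 269 and 347 in NC and 1197 and 1559.7 in Unop. For Lpin1, the counts were 442, 375 and 504 in PEG, 651, 489 and 587 in NC and 979.8 and 1271 in Unop. The grafts overlapped for both genes and stood below the Unop nerves, and for both genes Unop 2 was the higher Unop nerve.

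**Figure D2:**
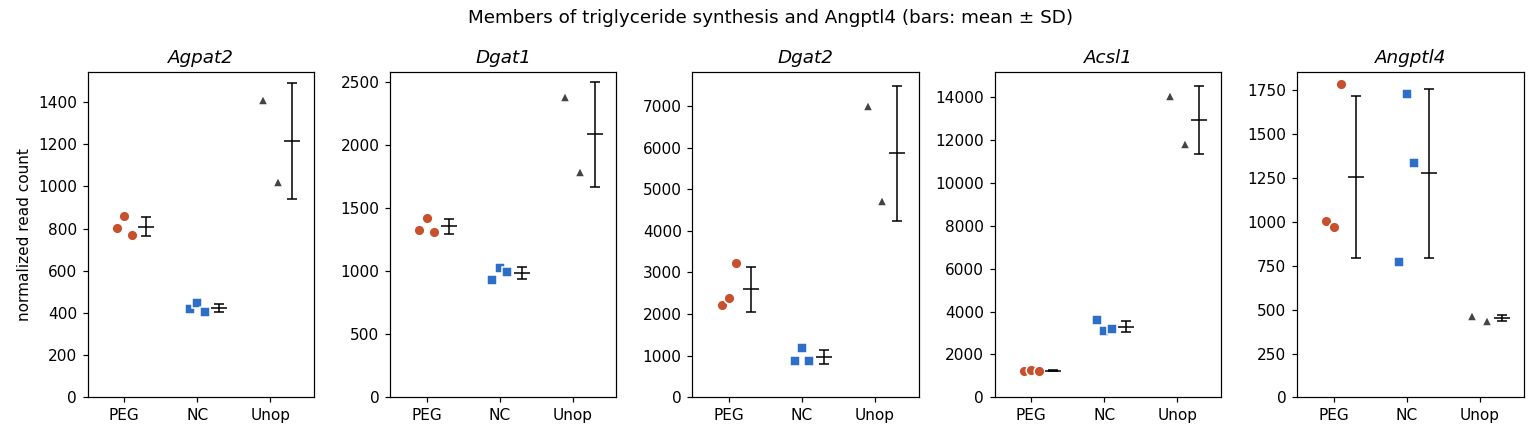
Normalized read counts, on axes from 0, of 4 members of triglyceride synthesis and of Angptl4, with 1 point per library and bars for the mean ± SD over the 3 libraries of each graft and the 2 of Unop. Agpat2, Dgat1 and Dgat2 are above the NC PNAs in every PEG-fused PNA, Acsl1 is below them, and Angptl4 is higher in all grafts than in the Unop nerves.

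Thrsp encodes Spot 14, a nuclear protein that tracks lipogenesis in fat and liver. The counts of Thrsp were 9.27, 3.74 and 15.0 in PEG, 53.6, 31.2 and 55.0 in NC and 6434 and 2921 in Unop. The groups did not overlap, and its log2 fold change relative to Unop nerves was -8.88 ± 0.55 in PEG-fused and -6.55 ± 0.55 in NC PNAs. It was lower in PEG-fused than in NC PNAs at a log2 fold change of -2.33 ± 0.49 (limma adjusted p = 0.00986). Acacb encodes acetyl-CoA carboxylase 2, an enzyme strong in muscle that restrains fatty acid oxidation. Counts for Acacb came to 145, 109.4 and 148 in PEG, 567, 88.2 and 421 in NC and 339 and 373 in Unop. NC 1 and NC 3 were above the Unop nerves and NC 2 was the lowest library of all, and no comparison of all 8 libraries called it in limma. Its log2 fold change relative to Unop nerves was -1.41 ± 0.67 in PEG-fused and -0.36 ± 0.67 in NC PNAs. Without NC 1 and NC 3, Acacb was called lower than in Unop nerves in both grafts, at -1.41 in PEG-fused (limma adjusted p = 0.001) and -1.999 in NC PNAs (limma adjusted p = 8.57e-04). DESeq2 on all 8 libraries put PEG-fused PNAs below the Unop nerves (DESeq2 adjusted p = 0.0249) and below NC PNAs (DESeq2 adjusted p = 0.0190).

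Of the transcription factors, Pparg fell and Cebpa did not pass the test. Pparg encodes PPAR gamma, the master regulator of fat cells, which macrophages also hold. Pparg gave 235, 143 and 264 counts in PEG, 256, 192.6 and 275 in NC and 2278 and 1475 in Unop. All 6 grafts stood well below the Unop nerves and overlapped each other, with a log2 fold change of -3.14 ± 0.30 in PEG-fused and -2.94 ± 0.30 in NC PNAs relative to Unop nerves. The difference between the grafts was not called (limma adjusted p = 0.6). Cebpa encodes C/EBP alpha, a factor of fat cells and myeloid cells. Cebpa had 1819.5, 1466 and 1704 counts in PEG, 1153, 1623 and 1297 in NC and 1814 and 720.4 in Unop. All 6 grafts lay between the 2 Unop nerves or close to the higher of them. Its log2 fold change of 0.53 ± 0.34 in PEG-fused and 0.23 ± 0.34 in NC PNAs relative to Unop nerves was not called (limma adjusted p = 0.2 and limma adjusted p = 0.56).

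Adrb3 encodes the beta 3 adrenergic receptor, through which nerves switch on lipolysis in rodent fat. For Adrb3, the counts were 0.927, 0.935 and 1.88 in PEG, 0.894, 0 and 0 in NC and 85.9 and 63.8 in Unop. In reads, 131 were in the Unop nerves, 4 in the PEG-fused PNAs and 1 in the NC PNAs. The ratio of Unop to PEG was 60.8, with an exact 95% counting interval of 23.2 to 226.5, and that of Unop to NC was 233 (41.2 to 9290). Ucp1, the uncoupling protein of brown fat, had 1 read in PEG 2, 1 in Unop 2 and none elsewhere. Among 8 other brown fat markers listed for this check, Elovl3 and Zic1 were at or near 0. Of the 5 tested, 3 were lower in both grafts than in the unoperated nerves, where 28.6% and 32.3% of all tested genes were. These were Kcnk3, Otop1 and Ppara. None was called between the grafts. The counts of Kcnk3 were 7.42, 6.54 and 8.44 in PEG, 20.6, 4.30 and 6.75 in NC and 668 and 316 in Unop. Counts for Otop1 came to 1.85, 7.48 and 1.88 in PEG, 1.79, 5.38 and 0 in NC and 119 and 209 in Unop. Kcnk3, a potassium channel, and Otop1, a proton channel, were thus far lower in every graft than in either Unop nerve. Both passed the filter only through the Unop nerves, so a higher level there was largely set in advance.

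**Figure D3:**
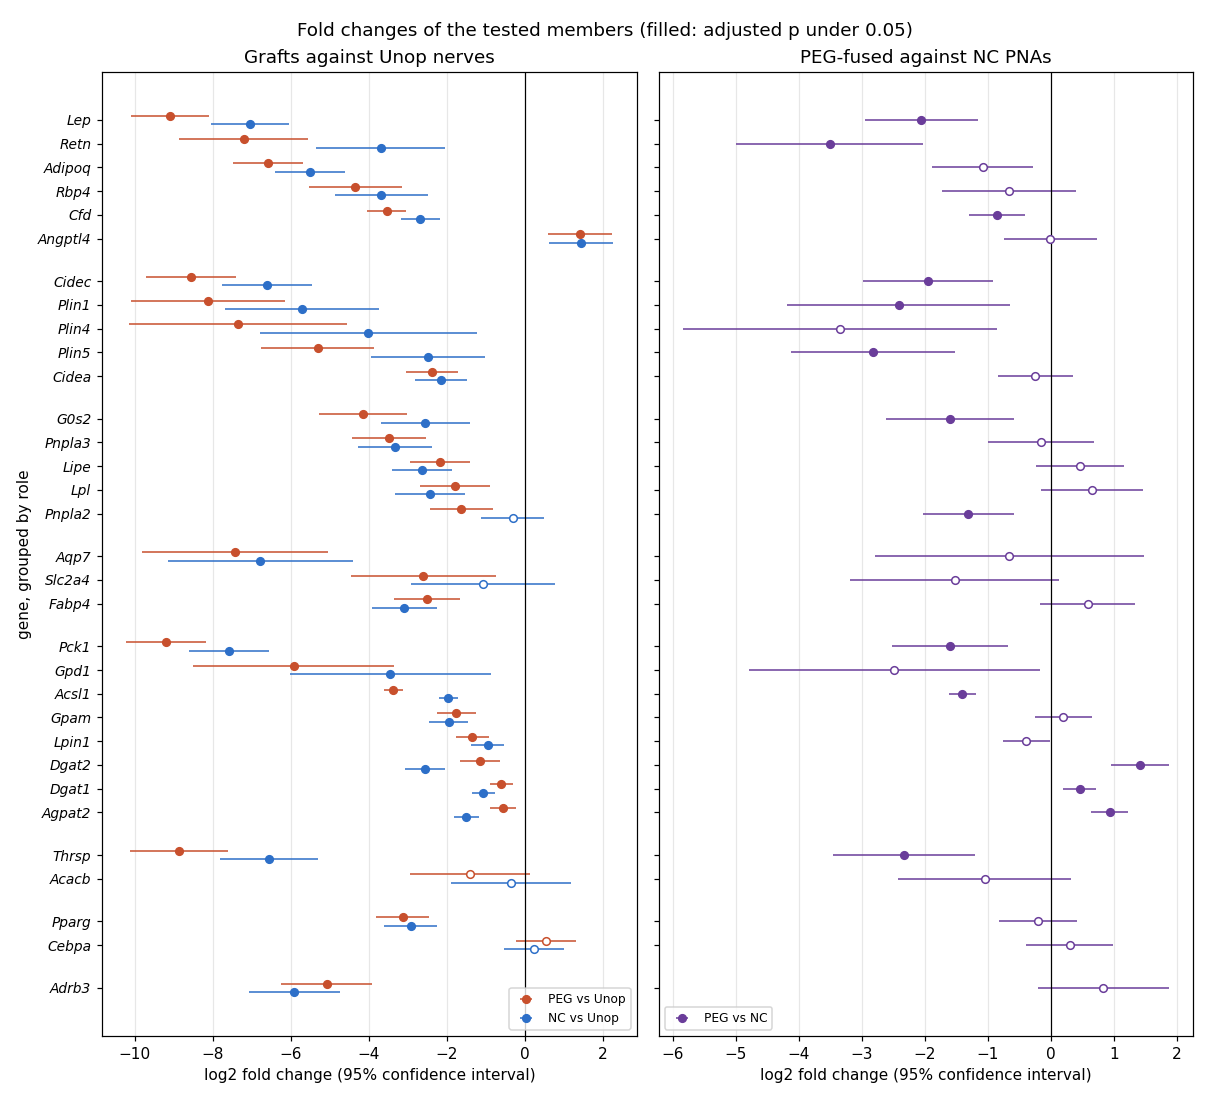
Log2 fold changes of the 32 tested members with 95% confidence intervals from limma, for the grafts relative to Unop nerves on the left and PEG-fused relative to NC PNAs on the right. Filled points have an adjusted p under 0.05. Angptl4 is the single member with filled points to the right of 0 on the left side, and Dgat2, Agpat2 and Dgat1 are those on the right side.

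Plin4, Gpd1, Slc2a4, Aqp7 and Acacb were more than 3 times higher in both NC 1 and NC 3, the libraries with many muscle transcripts, than in NC 2. These are 5 of 32 tested members, and 2.55% of all tested genes met the same rule. Gpd1 was 29.1 times and Plin4 32.5 times higher in NC 1, and 9.01 and 13.6 times in NC 3. All 5 are known from muscle as well as fat, and none was called between the grafts in limma. DESeq2 called Plin4, Gpd1, Slc2a4 and Acacb lower in PEG-fused than in NC PNAs, and edgeR called Plin4 and Gpd1 lower. The part of muscle in their values was not tested. Without NC 1 and NC 3, the log2 fold change of PEG-fused relative to NC PNAs was 0.19 for Gpd1, 0.44 for Slc2a4, 1.32 for Aqp7, 0.59 for Acacb and -0.48 for Plin4. Relative to Unop nerves, NC PNAs then stood at a log2 fold change of -6.88 for Plin4, -6.12 for Gpd1 and -8.77 for Aqp7, beside -4.02 ± 1.22, -3.45 ± 1.13 and -6.78 ± 1.04 with all libraries.

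In all 11 members called lower between the grafts, NC 2, whose muscle sum lay within the range of the PEG-fused PNAs, stood above every PEG-fused PNA. NC 2 was part of the test that picked these 11, so this position was largely set by the choice and is no separate evidence. Of these 11, Plin1 was 5.35 times and Plin5 4.36 times higher in NC 1 than in NC 2, and Plin5 2.69 times higher in NC 3. With NC 2 as the only NC PNA, all 11 kept their sign, but most lost their call. Their log2 fold changes were -3.22 for Retn, -1.96 for G0s2 and -1.32 for Acsl1. For Thrsp, Lep, Plin5, Plin1 and Pnpla2 they were -1.81, -1.79, -1.77, -1.54 and -1.53. Pck1 stood at -1.48, Cidec at -1.27 and Cfd at -0.87. Dgat2, Agpat2, Dgat1 and Lipe had log2 fold changes of 1.13, 0.85, 0.40 and 1.10 in that fit. That fit assumes that the single NC PNA varies like the libraries of the other groups, so it cannot decide whether the calls hold.

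**Figure D4:**
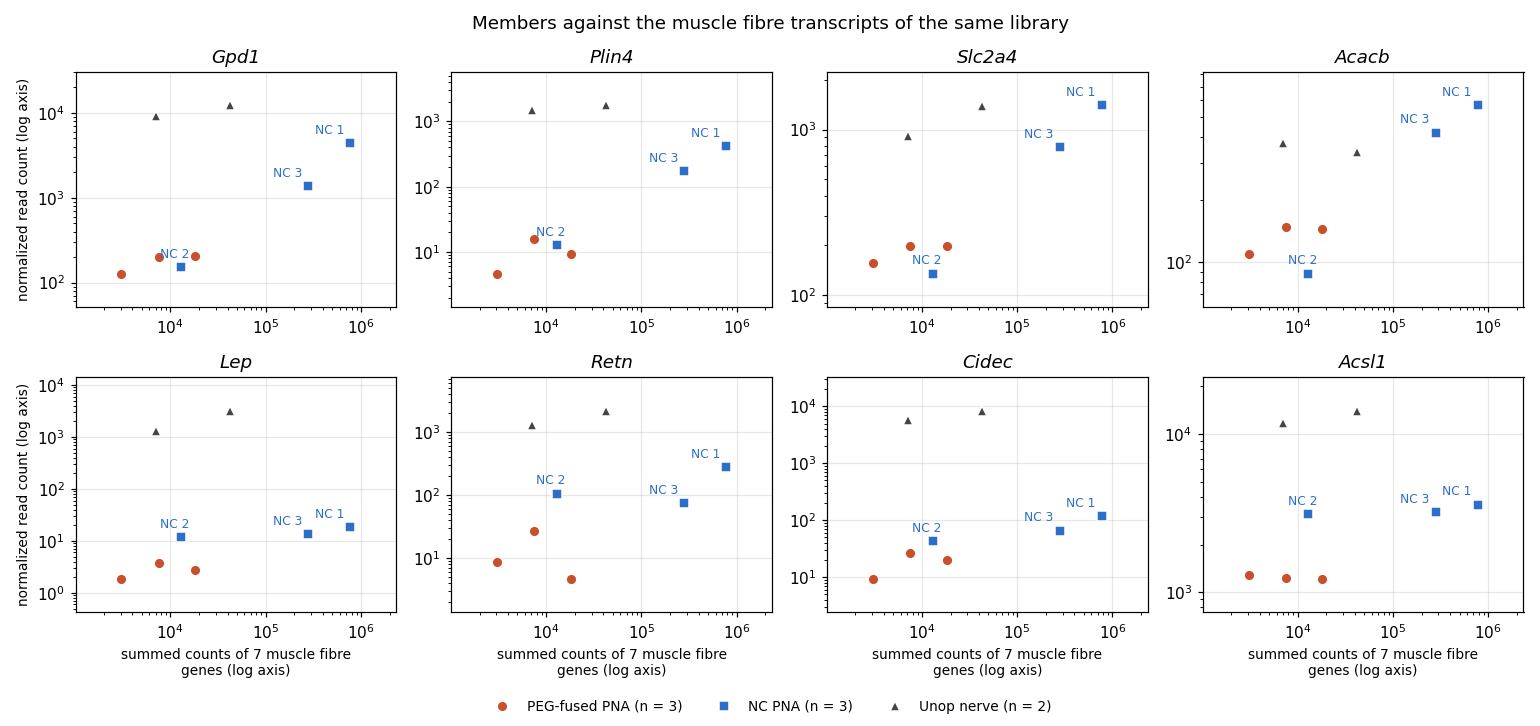
Normalized read counts of 8 members against the summed counts of 7 muscle fibre genes in the same library, both on log axes, with circles for PEG-fused PNAs, labelled squares for NC PNAs and triangles for Unop nerves. Gpd1, Plin4, Slc2a4 and Acacb are high in NC 1 and NC 3 and near the PEG-fused PNAs in NC 2, whereas NC 2 stands above all PEG-fused PNAs for Lep, Retn, Cidec and Acsl1.

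Unop 1 was the higher Unop nerve in 29 of 32 members, with a median ratio of Unop 1 to Unop 2 of 1.499 and a range from 0.767 to 2.52. PEG 3 was the highest PEG-fused PNA in 21 members and NC 1 the highest NC PNA in 21. Among all 16478 tested genes, Unop 1 was the higher Unop nerve in 53.6%, PEG 3 the highest PEG-fused PNA in 32.4% and NC 1 the highest NC PNA in 34.3%.

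Genes of the same pathways that are no members were listed with earlier results known. Of 14 other fat cell genes, 12 were tested and all 12 were lower in both grafts than in the unoperated nerves. Of all tested genes, 28.6% were lower in PEG-fused and 32.3% in NC PNAs. The median log2 fold change of the 12 was -5.62 in PEG-fused and -4.19 in NC PNAs. Lgals12, Acvr1c and Cyp2e1 passed the filter only through the Unop nerves, so a higher level there was largely set in advance. Between the grafts, 3 of the 12 were lower and 2 higher in PEG-fused PNAs, where 13.9% and 15.0% of all tested genes were. The 2 with the smallest adjusted p there were Nnat, encoding neuronatin, and Pc, encoding pyruvate carboxylase. Nnat gave 412, 396 and 439 counts in PEG, 197, 148 and 151 in NC and 4234 and 1962 in Unop. Pc had 1307, 1453 and 1279.5 counts in PEG, 763, 831 and 764 in NC and 4332 and 2529 in Unop. Both were above NC PNAs in every PEG-fused PNA, with a log2 fold change of 1.33 ± 0.26, limma adjusted p = 0.00717 and 0.77 ± 0.18, limma adjusted p = 0.0137.

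The 12 other lipid droplet and lipolysis genes were mixed relative to the unoperated nerves. In PEG-fused PNAs 5 were lower and 3 higher, where 28.6% and 29.1% of all tested genes were. In NC PNAs 6 were lower and 4 higher, where 32.3% and 32.2% were. Between the grafts, 13.9% of all tested genes were lower and 15.0% higher in PEG-fused PNAs. These shares also stand beside the counts of synthesis genes below. Between the grafts 1 was lower, Ces1d, encoding a carboxylesterase of fat and liver, and 2 were higher, with Mgll, encoding the lipase of the last step, in front. For Ces1d, the counts were 13.0, 9.35 and 16.9 in PEG, 163, 36.6 and 86.8 in NC and 11957 and 6135 in Unop. The counts of Mgll were 1194, 1053 and 1304 in PEG, 862, 621 and 772 in NC and 7434 and 8793 in Unop. The grafts did not overlap in either, at a log2 fold change of -2.57 ± 0.51, limma adjusted p = 0.00808 for Ces1d and 0.66 ± 0.14, limma adjusted p = 0.0105 for Mgll. The 15 other triglyceride synthesis genes had 6 higher and 6 lower in PEG-fused PNAs than in the unoperated nerves, and 3 higher and 3 lower than in NC PNAs. Lpin2, a relative of Lpin1, and Acsl3, an acyl-CoA synthetase of new droplets, led there. Counts for Lpin2 came to 1668, 1553 and 1614 in PEG, 2437, 2894 and 2765 in NC and 747 and 715 in Unop. Acsl3 gave 2208, 2503 and 2205 counts in PEG, 1825, 1208 and 1281 in NC and 4325 and 4489 in Unop. Lpin2 was highest in NC PNAs and lowest in Unop nerves (log2 fold change between the grafts -0.74 ± 0.09, limma adjusted p = 0.00114), and Acsl3 was the reverse (0.70 ± 0.15, limma adjusted p = 0.0106).

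Among 13 other regulators of fat cell formation, 9 were lower in PEG-fused and 9 in NC PNAs than in the unoperated nerves. Of all tested genes, 28.6% and 32.3% were lower, and 29.1% and 32.2% higher. Cebpb was the 1 regulator higher in both grafts, with a log2 fold change of 1.46 ± 0.28 in PEG-fused and 2.53 ± 0.28 in NC PNAs. Between the grafts, 4 were higher and 1 lower in PEG-fused PNAs, where 15.0% and 13.9% of all tested genes were. The lower one was again Cebpb. Ebf2 and Prdm16, transcription factors of fat cell precursors and of brown or beige fat, led. Ebf2 had 1514, 1628 and 1417 counts in PEG, 834, 677 and 643 in NC and 3583 and 3725 in Unop. For Prdm16, the counts were 361, 438 and 398 in PEG, 261, 170.0 and 191 in NC and 593 and 724 in Unop. PEG-fused PNAs lay between NC PNAs and Unop nerves for both, above NC PNAs at a log2 fold change of 1.09 ± 0.11, limma adjusted p = 7.20e-04 and 0.96 ± 0.18, limma adjusted p = 0.00631. Of 14 hormone receptors of fat cells, 6 were lower in PEG-fused and 10 in NC PNAs than in the unoperated nerves. Pde3b and Adipor2 of this list were higher in NC PNAs than in the unoperated nerves, and none was in PEG-fused PNAs. In PEG-fused relative to NC PNAs, 5 were higher and 4 lower, beside the same shares over all tested genes. Adrb1, the beta 1 adrenergic receptor, had no read in any NC PNA. The counts of Adrb1 were 5.56, 9.35 and 14.1 in PEG, 0, 0 and 0 in NC and 19.3 and 12.5 in Unop. Against a limit of 3 reads over the 3 NC PNAs, the level in PEG-fused PNAs was at least 9.93-fold higher. Adipor2, a receptor for adiponectin, was lower in PEG-fused than in NC PNAs, at a log2 fold change of -0.55 ± 0.10, limma adjusted p = 0.00506. Counts for Adipor2 came to 987, 1045 and 1026 in PEG, 1598, 1311 and 1579 in NC and 1155 and 1221 in Unop.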

How the data were processed

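RNA of 3 NC PNAs, 2 Unop nerves and 3 PEG-fused PNAs was sequenced from stranded mRNA libraries. Per the labels, the authors used TopHat2 on Rnor 6.0 for alignment, HTSeq for read counts of genes and DESeq2 for normalization, and the deposited signal is these normalized counts, not raw counts. Deposited fold changes, scores and p-values of the authors' own comparisons were not used. All values were whole reads within 0.001 after division by 1 constant per library, which gave size factors from 0.800 to 1.12. The main test was limma 3.58.1 (trend) in R 4.3.3 on log2(normalized count + 1), with 1 spread for 3 groups and Benjamini-Hochberg adjustment over 16478 genes with at least 10 counts in at least 2 libraries. A call needed an adjusted p under 0.05. Libraries of a group came from separate animals, whose spread the p-values measure.

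The members and lists were chosen with earlier results of these data known. All 35 members were named, with counts in each library for those called. For each list of other pathway genes, the 2 genes with the smallest adjusted p between the grafts were given. Of the brown fat list, counts of Kcnk3 and Otop1 were given instead. Cpt1b (limma adjusted p = 0.064) and Cox8b (limma adjusted p = 0.066) had the smallest values of that list, and neither was called between the grafts. The rule was not used for the marker lists of other cell types. Alternatives were edgeR 4.0.16 and DESeq2 1.42.0 on the whole reads, TMM rescaling, filters of 50 counts or none, a pseudocount of 8, a robust fit, only the 2 groups compared, a log2 fold change threshold of 1, a replicate block and each library left out. The fit without NC 1 and NC 3 was added after the data were seen. Exact intervals cover counting error only.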

Additional observations from a re-analysis of the deposited data

How the results depend on the processing

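Without NC 1 and NC 3, which leaves 1 NC PNA, all 11 members called lower in PEG-fused than in NC PNAs kept their sign. Most of the 11 lost their call there, and a fit with 1 NC PNA cannot decide whether the calls hold. The count of higher members, 3, was 1 with a log2 fold change above 1 required. When any 1 library was left out, the counts ran from 2 to 3 higher and 8 to 14 lower between the grafts, from 0 to 2 higher and 26 to 30 lower for PEG-fused PNAs against Unop nerves, and from 1 to 2 higher and 23 to 27 lower for NC PNAs. The count higher than in Unop nerves was 2 without Unop 1 in each graft, and 0 without Unop 2 in PEG-fused PNAs. Of the 14 members called between the grafts, 9 kept the call in all 8 such fits. DESeq2 called 16 lower members between the grafts. With a replicate block, 4 members were higher and 14 lower there, but the numbers were not shown to pair the grafts, since samples of the same number correlated at 0.108, 0.109 and -0.050 over genes.

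Some log2 fold changes that were not called turned sign. Between the grafts, without NC 1 and NC 3, they were 0.0508 for Cidea, 0.10 for Pparg, 0.19 for Gpd1, 0.44 for Slc2a4, 0.10 for Rbp4, 1.32 for Aqp7 and 0.59 for Acacb. With any 1 library left out they ran from -0.46 to 0.11 for Pnpla3, from -0.38 to 0.0593 for Pparg, from -1.65 to 0.29 for Aqp7 and from -0.33 to 0.25 for Angptl4, which TMM rescaling put at 0.0064. Relative to Unop nerves, Acacb in NC PNAs was at 0.0278 in edgeR and 0.0116 in DESeq2, ran from -0.88 to 0.46 with a library left out and was -1.999 without NC 1 and NC 3, while Cebpa ran from -0.13 to 1.20 in PEG-fused and from -0.43 to 0.90 in NC PNAs. The causes were not tested. Of the other values, 1620 kept their direction and their side of the threshold, 31 passed it and 42 fell short of it. Plin5, Adrb3 and Pnpla2 had few reads, which limits their precision.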

Other observations

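The genes in this paragraph were singled out after their values were seen. Plin2, the droplet coat protein of macrophages and most other cells, ran against the perilipins of fat cells, with 7197, 6138 and 8650.0 normalized counts in PEG, 5378, 5702 and 5734 in NC and 2664 and 2139 in Unop. It was higher than in Unop nerves in both grafts, with a log2 fold change of 1.60 in PEG-fused and 1.23 in NC PNAs (limma adjusted p = 4.92e-05 and 0.000155). Lepr, the receptor for leptin, had 610, 581 and 1048 counts in PEG, 377, 272 and 170 in NC and 4488 and 3895 in Unop. Unlike Lep itself, it was higher in PEG-fused than in NC PNAs, at a log2 fold change of 1.47 ± 0.31 (limma adjusted p = 0.0103). Cyp2e1, a cytochrome of fat and liver, had at most 3.71 counts in any graft and 504 and 840.5 in the Unop nerves, through which alone it passed the filter. Fitm1, a droplet gene of muscle, had 894 and 358 counts in NC 1 and NC 3 and at most 42.9 in the other 6 libraries.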
